A study of Homo sapiens with 8 samples.

Results

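RAB GTPases were followed here as a gene family: every gene measured by a probe set with a single annotated symbol made of RAB, a number and at most one of the letters A to D, each gene being represented by its probe set with the highest mean level. The rule gave 57 RAB genes of 22392 genes with such a probe set. It took 60 probe sets, because RAB11A, RAB27A and RAB44 had 2 each and the other 54 genes had 1. A further 7 probe sets were shared with other genes and were not used, so that RAB4B, RAB6C, RAB24, RAB34 and RAB43 are not described, and RAB8A is described from its unshared probe set alone. RAB6D, the retrogene RAB6C and RAB6A are near-identical in sequence, so the level listed for RAB6D is uncertain.

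RAB proteins are small GTPases that mark the membranes of the cell and switch between a GTP-bound form, which recruits effectors such as tethers, motors and adaptors, and a GDP-bound form that is extracted from the membrane. Exchange factors, many of which carry a DENN domain, turn a RAB on, and GTPase-activating proteins with a TBC domain turn it off. In enterocytes, which are polarised cells with an apical brush border, RABs direct newly made proteins from the Golgi to the apical or the basolateral membrane, carry endocytosed cargo through early, recycling and late endosomes, and dock secretory granules.

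The study asked how continuous flow changes the transcriptome of Caco-2 cells, a cell line from a human colorectal adenocarcinoma that takes on enterocyte-like features when kept confluent. Total RNA was measured on Affymetrix Human Gene arrays after 21 days of culture. The Transwell group comprised 4 samples seeded at 75000 cells per cm2 on static, porous inserts of 1.12 cm2, without flow. The gut-on-chip group comprised 4 samples seeded at the same density on a membrane that was placed in a glass chip, where medium flowed at 100 µL/h with a shear stress of about 0.002 dyne/cm2. Both groups received the same supplemented medium and came from the same line at passages 29 to 45, and no other agent or genetic change was applied. Flow, device, medium supply and the way of lysis changed together between the groups, and their effects cannot be told apart. Nothing states that the samples of a group came from separate experiments, so a p-value here describes how these arrays scatter, and that scatter may be purely technical.

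All levels are log2 values after RMA (robust multi-array averaging), and a log2FC is the mean of the 4 gut-on-chip arrays minus the mean of the 4 Transwell arrays. A gene was called upregulated or downregulated at a false discovery rate (FDR) below 0.01 in limma over all 53617 probe sets. Array medians lay between 2.46 and 2.49, and arrays of a group correlated with each other at 0.977 to 0.982 across probe sets, which are not independent replicates. The arrays carry no detection call in the deposited table, and a mean level below 4 is described here as dim. The labelled cell type was checked on its markers: 14 of 15 enterocyte and epithelial markers were measured and all 14 had a mean level of at least 4, with EPCAM at 11.3 and CDH1 at 11.7 in both groups. Of these 14, 8 were downregulated in the gut-on-chip, among them the brush border genes SI (log2FC = -5.20), ANPEP (-2.19) and VIL1 (-1.01), and KRT18 was upregulated (0.98). Their summed linear level was 16459 to 16868 in the Transwell arrays and 11653 to 13520 in the gut-on-chip arrays. Goblet cell markers summed to 1240 to 1359 and 278 to 375, respectively, mostly through ZG16 (log2FC = -3.01), while AGR2 was upregulated (0.64), 6 of the 9 log2FCs were positive and 6 of the 9 genes were dim. All 8 measured enteroendocrine markers were dim, and their sum was 33.0 to 40.1 in the Transwell and 33.4 to 37.9 in the gut-on-chip. Paneth and stem cell markers summed to 346 to 411 and 231 to 262, with 6 of 8 dim. Of these markers, LGR5 (log2FC = -1.68) and RNF43 (-0.36) were downregulated. RNF43 had the highest level of the list, at 7.85 in the Transwell and 7.49 in the gut-on-chip. Leukocyte and stromal markers summed to 1481 to 1642 and 1503 to 1779, with 6 of 9 dim. CD68 carried most of this sum, at 10.42 and 10.55 in the Transwell and gut-on-chip, and CD14 was at 6.91 and 6.49. The pan-leukocyte gene PTPRC was at 1.51 and 1.35, the T cell gene CD3E at 2.37 and 2.39, and the collagen gene COL1A1 was downregulated (log2FC = -0.76, FDR = 0.00877). The part of these marker differences in the RAB values was not tested. In bulk RNA, fewer cells of a kind and less RNA per cell cannot be told apart.

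Of the 57 RAB genes, 6 were upregulated in the gut-on-chip (RAB31, RAB3B, RAB15, RAB9A, RAB10 and RAB8A), 5 were downregulated (RAB29, RAB17, RAB37, RAB3D and RAB20) and 46 did not pass the threshold. The 11 called genes were 19.3% of the family, against 15.8% of all genes, with 10.5% upregulated against 8.72% and 8.77% downregulated against 7.06%. Of the family, 16 RAB genes were dim and none of these was called, while 11 of the 41 others were called (26.8%), against 30.8% of the 10417 genes with a mean level of at least 4. The share of RAB genes called was thus close to that of the array as a whole. Shares over all genes stand beside the counts of called genes in the classes and lists below. No class or list was tested against them. The median log2FC of the family was 0.05, beside 0.01 over all genes, with 32 positive and 25 negative values. Its median absolute log2FC was 0.30 among RAB genes with a mean level of at least 4 and 0.35 among all such genes. In 29 of the 57 genes (50.9%) the arrays of one group did not overlap with those of the other, which was true of 30.7% of all genes. Among the 41 RAB genes with a mean level of at least 4 this held for 25 (61.0%), against 53.1% of all such genes.

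**Figure D1:**
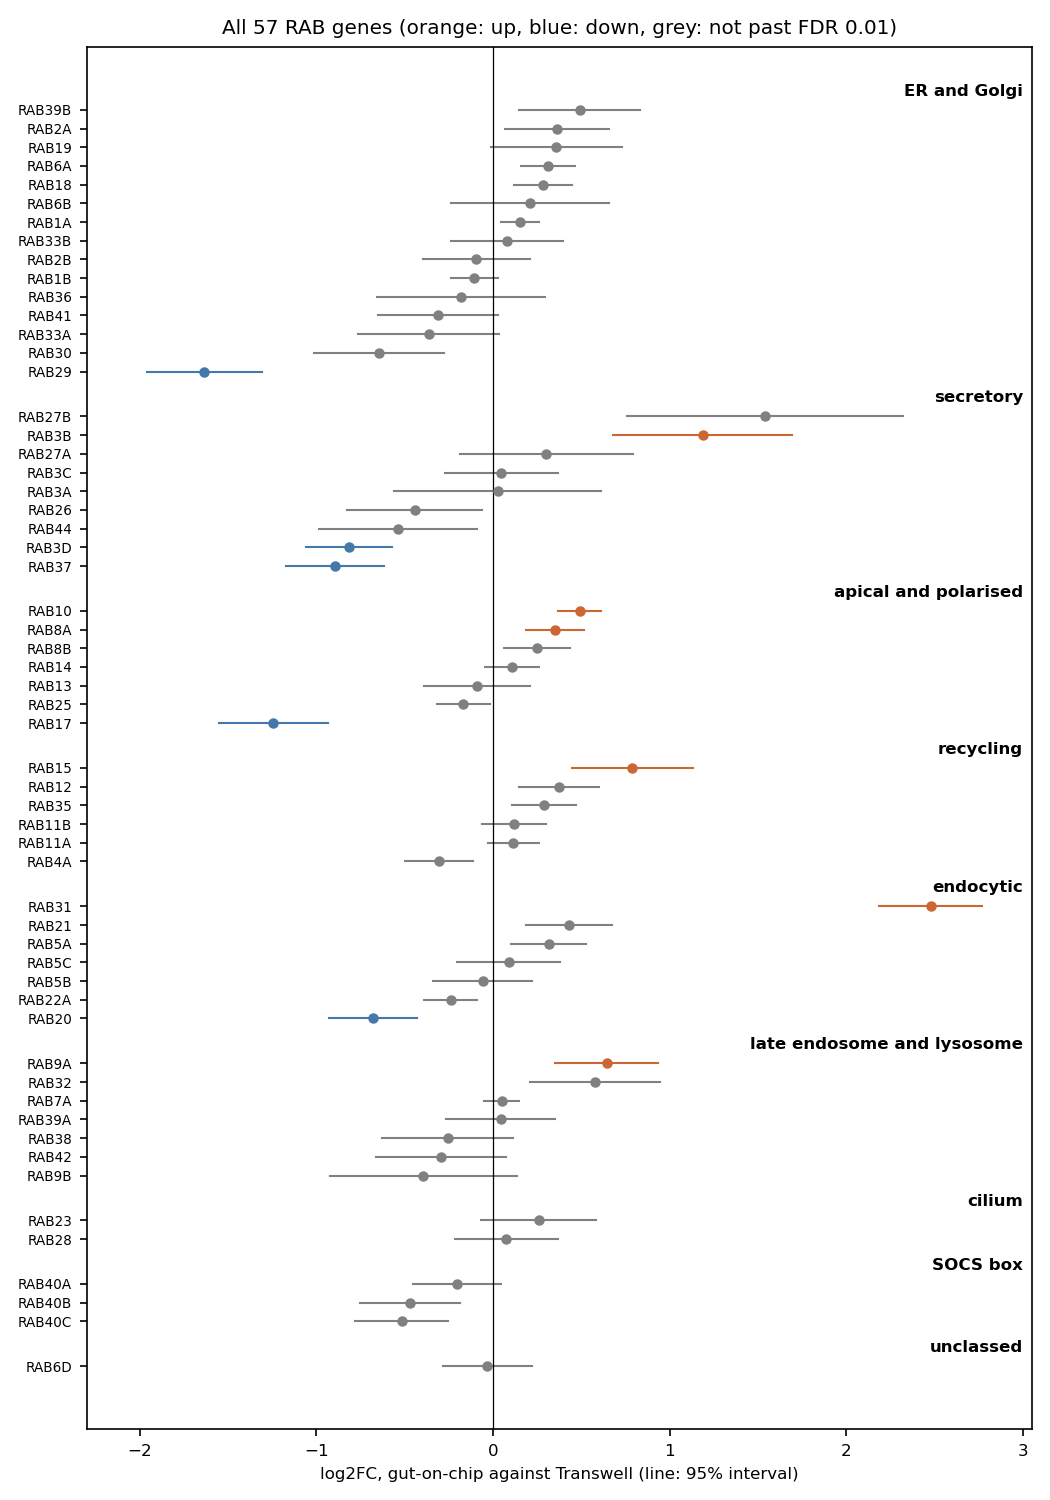
log2FC of each of the 57 RAB genes (gut-on-chip against Transwell, x axis in log2 units) with its 95% interval from the limma fit, grouped by the step of membrane traffic the protein is known for. The 6 upregulated genes (orange) and 5 downregulated genes (blue) are spread over 6 of the groups, and most points lie within 0.5 of 0.

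Only 4 RAB genes were called with a change of at least 2-fold, namely RAB31 and RAB3B among the upregulated and RAB29 and RAB17 among the downregulated genes. This was 7.02% of the family and 5.97% of all genes. Their promoters are shown because these 4 genes moved the most among the called RAB genes, in opposite directions. Each stretch of 300 bases runs 5′ to 3′, lies mostly upstream of the start of the gene and was taken from RefSeq on GRCh38.p14: RAB31 at chr18:9708051-9708350 on the plus strand, RAB3B at chr1:51990651-51990950, RAB29 at chr1:205775433-205775732 and RAB17 at chr2:237590685-237590984, the latter 3 on the minus strand. Capitals mark each match, on either strand, to one of the motifs searched, and no match overlapped another in these 4 stretches. The GC box, bound by SP1-like factors, was searched as GGGCGG. The E-box, bound by basic helix-loop-helix factors, was searched as CACGTG. The AP-1 site, bound by dimers of FOS and JUN proteins, was searched as TGANTCA. The ETS site, bound by factors of the ETS family, was searched as CCGGAAG. The TATA box of core promoters was searched as TATAAA. The CAAT box, bound by the trimeric factor NF-Y, was searched as CCAAT.
RAB31: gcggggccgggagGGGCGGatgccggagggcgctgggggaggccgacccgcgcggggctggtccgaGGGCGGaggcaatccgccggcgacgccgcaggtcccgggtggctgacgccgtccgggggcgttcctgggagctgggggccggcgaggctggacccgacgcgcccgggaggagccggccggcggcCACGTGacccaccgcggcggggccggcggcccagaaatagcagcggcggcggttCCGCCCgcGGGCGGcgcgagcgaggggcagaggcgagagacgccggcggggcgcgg
RAB3B: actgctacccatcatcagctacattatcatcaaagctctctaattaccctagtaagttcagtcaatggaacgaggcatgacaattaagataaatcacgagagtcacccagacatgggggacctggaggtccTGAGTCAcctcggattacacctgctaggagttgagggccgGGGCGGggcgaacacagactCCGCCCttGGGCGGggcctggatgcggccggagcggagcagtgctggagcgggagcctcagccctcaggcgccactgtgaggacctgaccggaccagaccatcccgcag
RAB29: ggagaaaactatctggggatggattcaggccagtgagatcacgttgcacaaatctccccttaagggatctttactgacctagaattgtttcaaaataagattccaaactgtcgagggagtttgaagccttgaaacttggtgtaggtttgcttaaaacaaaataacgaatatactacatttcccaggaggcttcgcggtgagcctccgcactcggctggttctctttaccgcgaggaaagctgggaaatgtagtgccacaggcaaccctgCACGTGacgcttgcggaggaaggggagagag
RAB17: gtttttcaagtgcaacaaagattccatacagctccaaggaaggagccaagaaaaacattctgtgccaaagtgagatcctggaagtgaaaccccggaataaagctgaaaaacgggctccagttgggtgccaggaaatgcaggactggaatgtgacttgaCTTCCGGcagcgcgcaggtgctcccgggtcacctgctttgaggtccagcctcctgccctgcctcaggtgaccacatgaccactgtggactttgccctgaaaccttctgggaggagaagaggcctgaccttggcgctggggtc
The RAB31 promoter was 82.7% G and C and held 4 GC boxes and 1 E-box. That of RAB3B was 58.7% G and C, with 3 GC boxes and 1 AP-1 site. Neither RAB29 nor RAB17 held a GC box: the promoter of RAB29 had 1 E-box at 48.3% G and C, and that of RAB17 had 1 ETS site at 54.7%. Promoters were matched for 44 of the 57 RAB genes. The median share of G and C was 65% in these 44 promoters and 58.3% in all 27294 promoters of the same length. It was 68.3% in upregulated, 54.7% in downregulated and 65.3% in other RAB genes. The motif counts were not adjusted for this base composition. A GC box stood in 36 of the 44 (81.8%), compared with 44.6% of all promoters. It stood in all 5 matched upregulated, 1 of 3 matched downregulated and 30 of 36 other RAB genes. A TATA box was present in 2 of the 44 (4.55%, against 12.0% of all), a CAAT box in 12 (27.3% against 35.7%), an E-box in 5 (11.4% against 7.43%), an AP-1 site in 2 (4.55% against 7.77%) and an ETS site in 8 (18.2% against 10.7%). These are matches of letters, and they were not tested against the levels.

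Among the endocytic RABs, 1 of 7 was upregulated and 1 downregulated. The share called was 28.6%, against 15.8% of all genes and 30.8% of genes with a mean level of at least 4. No endocytic RAB was dim. RAB31, a RAB5-related protein of transport between the trans-Golgi network and endosomes that is also known as RAB22B, had the largest change of the family. Its level was 5.10, 4.69, 5.18 and 4.78 in Transwell replicates 1 to 4 and 7.27, 7.40, 7.55 and 7.43 in gut-on-chip replicates 1 to 4. The groups lay far apart, with the lowest gut-on-chip array above the highest Transwell array. The log2FC of RAB31 was 2.48 (SE 0.13, 5.57-fold, FDR = 2.09e-06 in limma). RAB20, which acts on maturing endosomes and phagosomes, went the other way, with 6.41, 6.63, 6.40 and 6.54 in the Transwell and 5.81, 5.74, 6.05 and 5.66 in the gut-on-chip. All 4 gut-on-chip arrays of RAB20 lay below all 4 Transwell arrays (log2FC = -0.68, SE 0.11, FDR = 0.00202).

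The other 5 endocytic genes did not pass the threshold. RAB5A, RAB5B and RAB5C, which drive fusion of early endosomes, had log2FCs of 0.31 (FDR = 0.0511), -0.06 (0.841) and 0.09 (0.757). RAB21, a RAB of integrin traffic, had a log2FC of 0.43 (95% interval 0.19 to 0.67, FDR = 0.0236). RAB22A, the closest relative of RAB31 and a RAB of early endosomes, had 9.54 ± 0.05 in the Transwell and 9.30 ± 0.10 in the gut-on-chip (SD, n = 4), and its log2FC of -0.24 (FDR = 0.0362) had the opposite sign to that of RAB31.

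Of the 9 secretory RABs, which dock and prime granules for regulated exocytosis, 1 was upregulated and 2 were downregulated. The share called was 33.3%, against 15.8% of all genes, and 5 of the 9 were dim. Among genes with a mean level of at least 4 the share was 30.8%. RAB3B, a RAB3 isoform found in epithelial and endocrine cells, was at 5.60, 5.70, 5.54 and 4.88 in the Transwell and at 6.995, 6.89, 6.45 and 6.13 in the gut-on-chip. Its log2FC was 1.19 (SE 0.23, 2.28-fold, FDR = 0.00525). The arrays of RAB3B did not overlap between the groups, although each group spread over more than 0.8 log2 units, and its call was lost in 6 of the 8 fits that each left out 1 array. RAB3D, a RAB3 isoform of exocrine granules, had 7.49, 7.45, 7.49 and 7.67 in the Transwell and 6.68, 6.90, 6.44 and 6.82 in the gut-on-chip (log2FC = -0.82 with an SE of 0.11, FDR = 6.13e-04). RAB37, another granule RAB, was measured at 6.35, 6.14, 6.34 and 6.31 and at 5.65, 5.32, 5.46 and 5.14, respectively (log2FC = -0.89, SE 0.12, FDR = 8.14e-04). For both RAB3D and RAB37 every gut-on-chip array lay below every Transwell array.

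RAB27A and RAB27B dock secretory granules and act in exosome release. RAB27B had the third largest absolute log2FC of the family, after RAB31 and RAB29, but was dim and did not pass the threshold (log2FC = 1.54, 95% interval 0.76 to 2.32, FDR = 0.0134). Its level was 3.67, 3.38, 2.09 and 2.76 in the Transwell and 4.75, 4.02, 4.29 and 5.01 in the gut-on-chip. The groups did not overlap, but the SD of the Transwell arrays (0.70) was the widest of all RAB genes, and 3 of the 4 gut-on-chip arrays were brighter than 4.2. The log2FC of RAB27A was 0.30 (FDR = 0.462), and its second probe set gave 0.22 (FDR = 0.422). RAB3A (0.03), RAB3C (0.05), RAB26 (-0.44) and RAB44 (-0.54) were dim and did not pass the threshold. The second probe set of RAB44, also dim, had a log2FC of the opposite sign (0.11, FDR = 0.798).

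**Figure D2:**
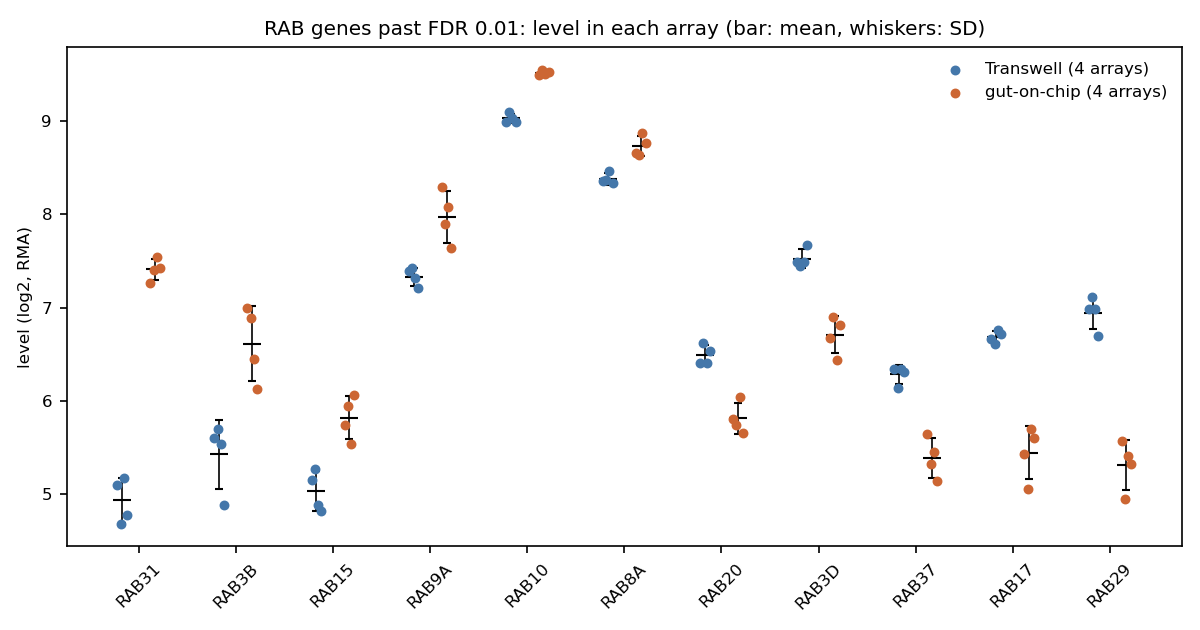
Level (log2, RMA) of the 11 RAB genes past FDR 0.01 in each of the 4 Transwell arrays (blue) and 4 gut-on-chip arrays (orange), with the mean (bar) and SD (whiskers). In none of the 11 genes do the arrays of the 2 groups overlap; RAB31 shows the widest gap.

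The RABs of apical and polarised traffic included 2 upregulated and 1 downregulated of 7 genes, none of them dim. The share called was 42.9%, against 15.8% of all genes and 30.8% of genes with a mean level of at least 4. RAB17 is an epithelial RAB of apical recycling and transcytosis. It was measured at 6.66, 6.61, 6.76 and 6.72 in the Transwell, within 0.2 log2 units of each other, and at 5.43, 5.06, 5.70 and 5.61 in the gut-on-chip. The log2FC of RAB17 was -1.24 (SE 0.14, 2.37-fold lower, FDR = 2.06e-04), and the highest gut-on-chip array stayed below the lowest Transwell array. RAB10, which serves basolateral delivery and the traffic of the glucose carrier GLUT4, had means of 9.03 ± 0.05 and 9.52 ± 0.03 (SD, n = 4). This change was small but precise (log2FC = 0.49, SE 0.06, 1.40-fold, FDR = 2.17e-04). RAB8A, which carries cargo from the trans-Golgi network to the apical membrane, had 8.38 ± 0.06 and 8.73 ± 0.11 (log2FC = 0.35, SE 0.07, FDR = 0.00844), and this call was lost in 6 of the 8 fits without 1 array.

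RAB25, the epithelial member of the RAB11 group, had a log2FC of -0.17 (95% interval -0.32 to -0.02, FDR = 0.140). RAB8B (0.25), RAB14 (0.11) and RAB13 (-0.09), the last known for delivery of tight junction proteins, did not pass the threshold either. RAB17 was the only one of the 7 genes of apical and polarised traffic with a change of at least 2-fold.

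Among recycling RABs, RAB15 alone passed the threshold, out of 6 genes, none of them dim. The share called was 16.7%, against 15.8% of all genes and 30.8% of genes with a mean level of at least 4. RAB15, a RAB of early and recycling endosomes, was at 5.16, 5.27, 4.89 and 4.82 in the Transwell and at 5.74, 5.95, 5.54 and 6.07 in the gut-on-chip (log2FC = 0.79 with an SE of 0.15, FDR = 0.00580). Each gut-on-chip array exceeded each Transwell array, but the call was lost in 6 of the 8 fits without 1 array. RAB11A and RAB11B, which run the slow recycling route, had log2FCs of 0.11 (95% interval -0.03 to 0.26) and 0.12 (-0.06 to 0.30). RAB4A, of the rapid route, had -0.30 (FDR = 0.0393), RAB35, also of a fast route, 0.29 (0.0382) and RAB12, a RAB of transferrin receptor turnover, 0.37 (0.0333).

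Of the 15 RABs of the endoplasmic reticulum and Golgi, 1 was downregulated and none upregulated. The share called was 6.67%, against 15.8% of all genes, and 5 of the 15 were dim. Among genes with a mean level of at least 4 the share was 30.8%. RAB29, a RAB of the trans-Golgi network that recruits the kinase LRRK2, was at 6.98, 7.11, 6.99 and 6.70 in the Transwell and at 5.58, 4.95, 5.41 and 5.32 in the gut-on-chip. Its arrays were separated by more than 1 log2 unit (log2FC of -1.63, SE 0.15, 3.10-fold lower, FDR = 5.20e-05). RAB1A and RAB1B, needed for transport from the endoplasmic reticulum to the Golgi, had log2FCs of 0.15 (FDR = 0.0645) and -0.11 (0.333). RAB6A, of retrograde and post-Golgi transport, lay just outside the threshold (log2FC = 0.31, FDR = 0.0116), with 9.97 ± 0.07 in the Transwell and 10.28 ± 0.11 in the gut-on-chip (SD, n = 4). RAB18, a RAB of lipid droplets and the endoplasmic reticulum, had 0.28 (FDR = 0.0265) and the Golgi RAB RAB30 -0.64 (FDR = 0.0240). RAB2A, of traffic between the endoplasmic reticulum and the Golgi, had 0.36 (FDR = 0.107).

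In the late endosome and lysosome group, 1 of 7 genes was upregulated. The share called was 14.3%, against 15.8% of all genes, and 4 of the 7 were dim. Among genes with a mean level of at least 4 the share was 30.8%. RAB9A returns mannose-6-phosphate receptors to the trans-Golgi network. It measured 7.39, 7.42, 7.32 and 7.21 in the Transwell and 8.29, 7.90, 8.08 and 7.64 in the gut-on-chip (log2FC = 0.64 with an SE of 0.13, FDR = 0.00691). The groups did not overlap, yet the call was lost in 7 of the 8 fits without 1 array and was kept without gut-on-chip replicate 4, its lowest gut-on-chip array. RAB7A, the main RAB of late endosome and lysosome fusion, had 11.48 ± 0.04 and 11.53 ± 0.04 (SD, n = 4), and the 95% interval of its log2FC ran from -0.05 to 0.15. RAB32, a RAB of lysosome-related organelles, had 4.46, 4.19, 4.21 and 4.02 in the Transwell against 5.15, 4.64, 4.67 and 4.73 (log2FC = 0.58, FDR = 0.0397).

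The remaining RABs stayed below the threshold. RAB23, a negative regulator of Hedgehog signalling, had a log2FC of 0.26 and RAB28, a RAB of the cilium, 0.08. All 3 RAB40 genes, whose SOCS box links them to ubiquitin ligases, had negative values: RAB40A -0.20, RAB40B -0.47 (FDR = 0.0319) and RAB40C -0.52 (FDR = 0.0128), with RAB40A dim.

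A change past the threshold in one paralog and not in its relative does not show that they differ, so the within-array difference between paralogs was compared directly. Of 23 pairs listed, 20 were measured. An exact two-sided permutation test over the 70 ways of assigning the arrays cannot go below p = 0.0286, and 8 pairs reached this value. After Benjamini-Hochberg adjustment over the 20 pairs it became 0.0714, so that with 8 pairs at the smallest p none could pass 0.05. The adjusted test therefore does not say whether the pairs differed, and the differences are given with their SEs. The widest difference was between RAB22A and RAB31, whose log2FCs differed by -2.72 (SE 0.15). RAB3B and RAB3D, called in opposite directions, differed by 2.00 (SE 0.32), RAB27A and RAB27B by -1.24 (SE 0.43) and RAB9A and RAB9B by 1.04 (SE 0.25). The 4 further pairs at the smallest p were RAB3A and RAB3D (0.84), RAB32 and RAB38 (0.83), RAB5A and RAB5B (0.37) and RAB1A and RAB1B (0.26). RAB27B, RAB9B, RAB3A and RAB38 were dim, with mean levels of 3.75, 3.67, 3.51 and 2.62. Their differences thus set a dim gene against a brighter one. RAB11A and RAB11B differed by -0.01 (SE 0.07, exact permutation p = 0.943).

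**Figure D3:**
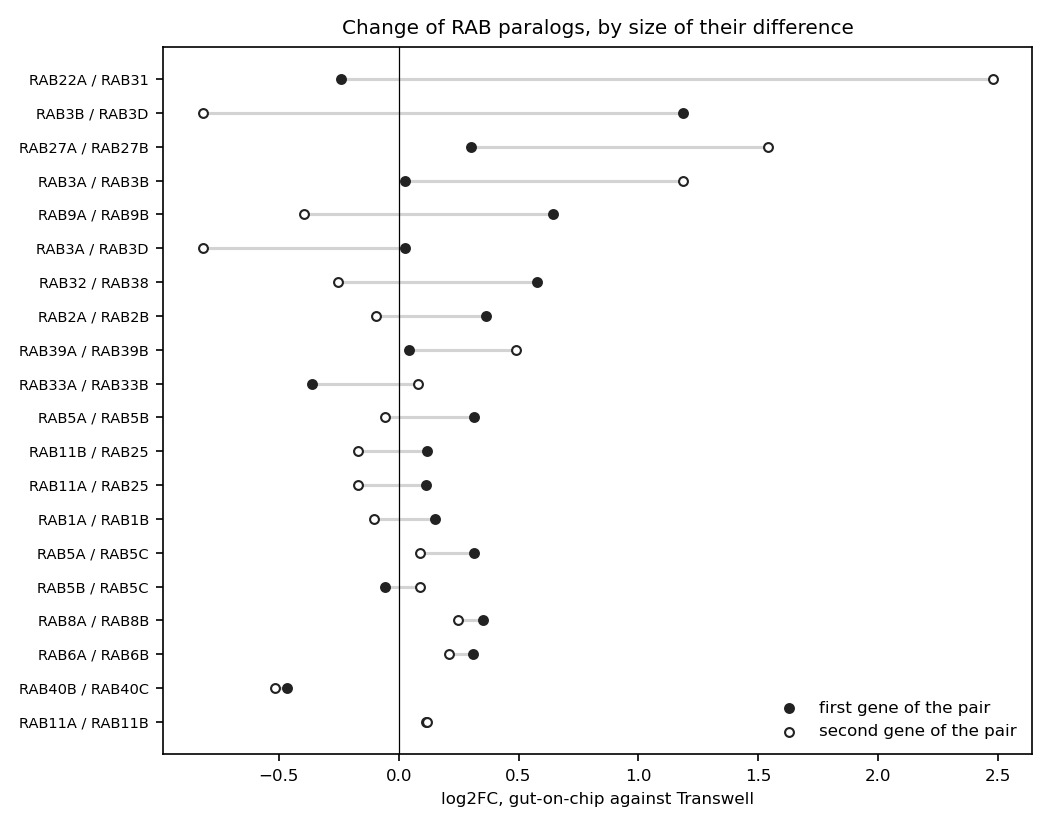
log2FC (gut-on-chip against Transwell, x axis in log2 units) of both genes of the 20 measured paralog pairs, sorted by the size of their difference, with the first gene filled and the second open. The lines are long for RAB22A and RAB31 (-2.72) and for RAB3B and RAB3D (2.00), whereas RAB11A and RAB11B coincide.

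RABs are kept soluble and returned to membranes by carriers and prenylating enzymes. None of the 5 measured genes of this group, of 9 listed, passed the threshold (median log2FC 0.08), and none was dim. The share called was 15.8% of all genes and 30.8% of genes with a mean level of at least 4. GDI2, which extracts GDP-bound RABs from membranes, had a log2FC of -0.10 and RABAC1, a prenylated RAB acceptor, 0.36 (FDR = 0.0463).

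Of the RAB exchange factors, 37 of 41 were measured, with 3 upregulated and 5 downregulated (median log2FC 0.08). The called genes were 21.6% of this list, in which 7 genes were dim. This share lay between the 15.8% of all genes and the 30.8% of genes with a mean level of at least 4. The 4 largest changes among those called were all downward. DENND1C, a DENN-domain protein that acts on RAB35, was at 6.97, 7.10, 7.02 and 7.01 in the Transwell and at 5.51, 5.52, 5.37 and 5.61 in the gut-on-chip (log2FC = -1.52 with an SE of 0.09, FDR = 4.16e-06). Its relative DENND1B, likewise of RAB35, had a log2FC of -1.14, the DENN-domain protein DENND5B one of -1.19, and SBF2, an exchange factor for RAB21, one of -1.11. TRAPPC10, a subunit of the TRAPP tethering complex (0.18), and ANKRD27, which acts on RAB21 (-0.17), did not pass the threshold.

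Of the genes listed as GTPase-activating proteins of RABs, most of which carry a TBC domain, 36 of 39 were measured. Of these, 2 were upregulated and 3 downregulated (13.9% called, median log2FC -0.09), and 2 of the 36 were dim. By comparison, 15.8% of all genes and 30.8% of genes with a mean level of at least 4 were called. The largest changes among the called genes of the list were TBC1D24 (-0.92), TBC1D9 (0.82), TBC1D8B (-0.59) and TBC1D22B (0.41). The calls of TBC1D9, TBC1D8B and TBC1D22B were lost in 5, 3 and 4 of the 8 fits without 1 array. TBC1D23 (0.22) and TBC1D14 (0.10) did not pass. Whether each listed protein turns off a RAB was not tested.

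Of the 13 effectors of secretory RABs, 2 were upregulated and none downregulated (15.4% called against 15.8% of all genes, median log2FC 0.03). Both act with RAB27 proteins. EXPH5, also called SLAC2-B, was at 3.89, 4.47, 3.96 and 4.204 in the Transwell and at 5.82, 5.99, 5.46 and 6.48 in the gut-on-chip (log2FC = 1.81, SE 0.22). UNC13D, also called MUNC13-4, primes granules and was at 2.92, 3.04, 2.88 and 3.18 against 4.06, 4.68, 4.56 and 4.65 (log2FC = 1.48, SE 0.18). For both effectors all gut-on-chip arrays exceeded all Transwell arrays, although 9 of the 13 genes of the list, UNC13D included, were dim. SYTL5, a synaptotagmin-like RAB27 effector (0.19), and RPH3AL, a RAB3 and RAB27 effector (-0.11), did not pass the threshold.

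Of the 25 effectors of endocytic RABs, 3 were upregulated and 1 was downregulated (16% called, median log2FC 0.07). None of the 25 was dim. By comparison, 15.8% of all genes and 30.8% of genes with a mean level of at least 4 were called. WDR91, which acts with RAB7 in the maturation of endosomes, had the largest change (log2FC = 1.16). VPS18, a core subunit of the HOPS and CORVET tethers, had 0.73 and VPS45, which controls SNAREs of early endosomes, 0.66, the latter call being lost in 6 of the 8 fits without 1 array. APPL2, an effector of RAB5, was at 8.10, 8.17, 8.06 and 8.20 in the Transwell and at 7.06, 7.29, 7.22 and 7.03 in the gut-on-chip (log2FC = -0.98, SE 0.08). EEA1, the tether of early endosomes (0.24, FDR = 0.122), and PLIN3 (0.17, FDR = 0.276) did not pass.

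Of the recycling and apical effectors, 31 of 32 were measured, with 9 upregulated and 1 downregulated, at a median log2FC of 0.07. The 10 called genes were 32.3% of the list, in which 4 genes were dim. The share called was 15.8% of all genes and 30.8% of all genes with a mean level of at least 4. Of the list, 29.0% were upregulated and 3.23% downregulated, against 8.72% and 7.06% of all genes. Whether the list differed from all genes was not tested. EHD2, an ATPase of membrane necks and caveolae, was at 5.02, 5.44, 5.38 and 5.21 in the Transwell and at 6.61, 7.06, 6.86 and 7.08 in the gut-on-chip (log2FC = 1.64, SE 0.14). SH3TC2, a RAB11 effector, had a log2FC of 1.59 but was dim, at 2.04 to 2.18 in the Transwell and 3.12 to 4.23 in the gut-on-chip. MYO5A, an actin motor that RAB11, RAB10 and RAB27A recruit to vesicles, had 1.37, and MICALL1, a RAB8 and RAB35 effector, 0.89. OPTN, an effector of RAB8 (-0.30, FDR = 0.0201), and EXOC1, of the exocyst (-0.06, FDR = 0.823), did not pass the threshold.

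Of 12 measured genes for apical SNAREs and their partners, 2 were upregulated (16.7% called, median log2FC 0.02), and 1 of the 12 was dim. By comparison, 15.8% of all genes and 30.8% of genes with a mean level of at least 4 were called. VAMP7, a vesicle SNARE of apical and lysosomal fusion, was at 7.35, 7.49, 7.50 and 7.36 in the Transwell and at 8.11, 8.005, 8.04 and 8.07 in the gut-on-chip (log2FC = 0.63, SE 0.07). SNAP23, a target SNARE of the plasma membrane, had a log2FC of 0.33. STX3, the apical syntaxin, had -0.05 and MAL2, of the transcytotic route, -0.01, and neither passed the threshold. Among the ARF and ARL small GTPases, 2 of 14 measured genes were upregulated and none was downregulated (14.3% called, against the same shares). Of these 14 genes, 3 were dim.

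**Figure D4:**
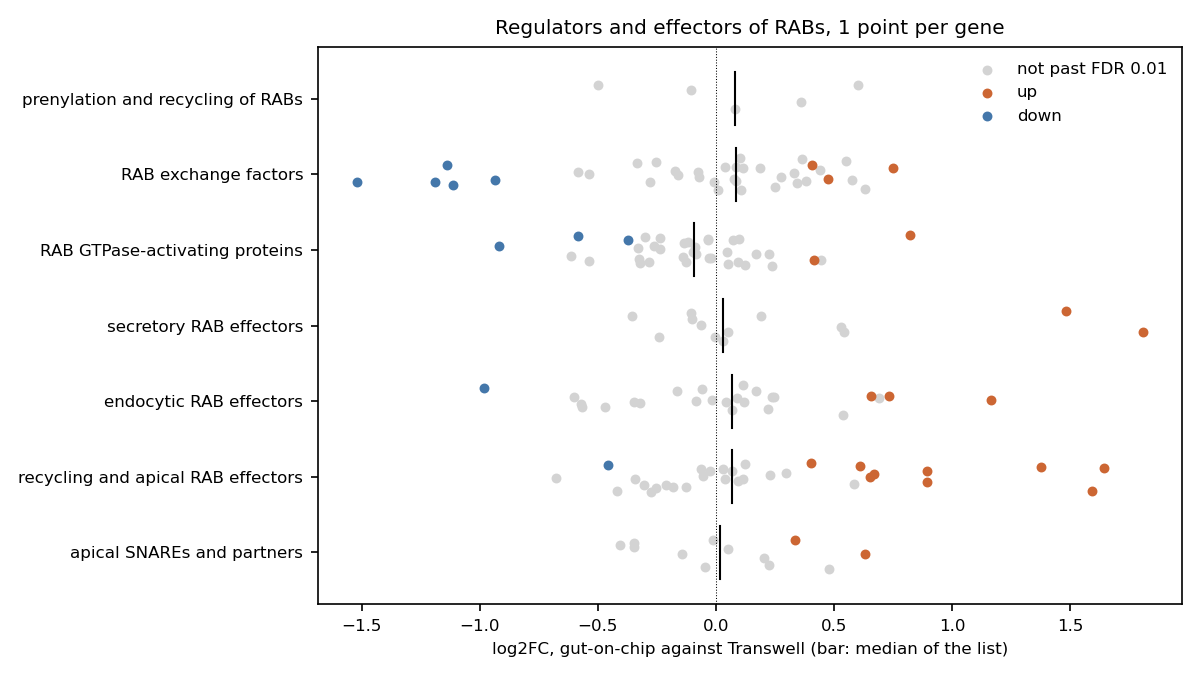
log2FC (gut-on-chip against Transwell, x axis in log2 units) of each measured gene in 7 lists of RAB regulators, effectors and SNAREs, with the median of each list as a bar. Orange points were upregulated, blue points downregulated and grey points did not pass FDR 0.01. All 7 medians lie between -0.09 and 0.08. The exchange factors have 5 downregulated genes (13.5%, against 7.06% of all genes). The recycling and apical effectors have 9 upregulated genes (29.0%, against 8.72% of all genes). No list was tested against these shares.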

How the data were processed

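Total RNA of 8 Caco-2 samples, 4 Transwell and 4 gut-on-chip, was measured on Affymetrix Human Gene arrays. The authors deposited log2 levels of 53617 probe sets, made with RMA (background correction, quantile normalization and summarisation), of which no version is named in these sources. Quantile normalization removes differences in overall signal between arrays, and the number of arrays limits the precision. The methods describe a custom definition of probe sets, whereas this table holds probe sets of the manufacturer, so counts need not equal those of the study. The labels and the methods name different versions of the RNA isolation kit. No column was left unused.

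Gene names came from the platform annotation: 23866 probe sets had 1 symbol, 1852 several and 27899 none, and 22560 of the first were matched to a current gene by Entrez ID. All probe sets were fitted with limma 3.58.1 in R 4.3.3, using an intensity-based moderated statistic (two-sided, loess span 0.3) and Benjamini-Hochberg adjustment over all probe sets. Prior and residual degrees of freedom were 3.88 and 6. The fit was tested on simulated data. The other comparison was the exact permutation test of the paralog pairs.

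The RAB genes, their grouping and the lists of regulators, effectors and markers were chosen with earlier results of these data known. Levels in every array were given for called RAB genes with an absolute log2FC of at least 0.5, group means for the other called ones. Of each partner list, up to 4 called genes with the largest change and up to 2 uncalled genes with the highest mean level were named. Array values of RAB27B, RAB32 and some of these partners were added after the values were seen. Alternatives were the moderation, normalization, filter, probe sets tested, array weights, replicate block, threshold, probe set per gene and each array left out. Promoter sequences came from RefSeq (GRCh38.p14). One list of other genes is not reported here.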

Additional observations from a re-analysis of the deposited data

Results flagged for a closer look

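In 10 of 182 groups of 4 arrays, over the RAB genes and the named partner genes, a single array lay far from the other 3. Chance alone would mark about 1 group in 20. RAB37 was the only called gene among them, and it was called in each of the 8 fits without 1 array. Levels are log2 values.

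Transwell replicate 4 stood apart in RAB23, with 5.79 against 6.32 to 6.33 in the others, and in RAB5C, with 4.96 against 4.72 to 4.75. Transwell replicate 2 stood apart in RAB5B (4.53 against 4.36 to 4.39), in RAB1B (10.68 against 10.51 to 10.54) and in RAB37 (6.14 against 6.31 to 6.35). Transwell replicate 1 was high in RAB41, at 2.80 against 2.38 to 2.43, and Transwell replicate 3 was high in RPH3AL, at 6.54 against 6.40 to 6.42. In the gut-on-chip, replicate 4 was low in RAB2A, at 5.52 against 6.003 to 6.04, and replicate 3 was high in RAB2B (6.76 against 6.40 to 6.45) and in RAB42 (4.04 against 3.62 to 3.68). When gut-on-chip replicate 4 was left out, RAB2A had a log2FC of 0.49 (FDR = 0.0125 in limma) instead of 0.36.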

How the results depend on the processing

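RAB31, RAB10, RAB17, RAB29, RAB3D and RAB37 were called in each of the 15 alternatives run at FDR below 0.01. RAB20 was lost only with the replicate block (FDR = 0.0154 in limma). RAB15, RAB3B, RAB9A and RAB8A were called in 8, 8, 7 and 6 of the 15, with FDRs of up to 0.0213, 0.0163, 0.0251 and 0.0440. The 6 upregulated RAB genes became 3 without an intensity trend and 13 at FDR below 0.05, and 2 to 5 when 1 array was left out. Calls over all 53617 probe sets, of which 2765 were upregulated in the main fit, moved the same way. The share upregulated was 4.07% without the trend, 8.42% at FDR below 0.05 and 3.58% to 4.67% in the fits without 1 array. Of these fits, those without Transwell replicates 1, 3 and 4 gave 3, 2 and 2, and those without gut-on-chip replicates 1 and 3 gave 3 each. The 5 downregulated genes became 10 at FDR below 0.05 and 5 to 6 when 1 array was left out. Over all probe sets, 2364 were downregulated in the main fit. The share was 6.99% at FDR below 0.05 and 3.15% to 4% without 1 array. Quantile normalization again gave 5 upregulated and 7 downregulated RAB genes, beside 4.65% and 4.68% of all probe sets. It added RAB22A (FDR = 0.00743 in limma) and RAB40C (0.00797) to the downregulated genes and lost RAB8A (0.0178). The smaller test sets (mean level of at least 4, or 1 gene symbol) gave 9 upregulated genes each, with fewer probe sets to adjust over. They gave 6 and 7 downregulated genes, respectively. With the filter on mean level only 41 RAB genes were tested, and 18.6% of all tested probe sets were upregulated and 15.5% downregulated. For probe sets with 1 gene symbol these shares were 11.7% and 9.07%. With the replicate block, 4 RAB genes were upregulated and 4 downregulated, beside 3.29% and 2.96% of all probe sets. Same-numbered arrays did not deviate together over all probe sets (correlations of -0.043 to 0.003). Most of these probe sets were dim, so the correlations cannot settle whether the numbers pair the samples. The labels do not state it either. The median log2FC was 0.03 to 0.08 when 1 array was left out and 0.12 with the filter on mean level. Signs turned only in genes not called: after quantile normalization the log2FC of RAB3A was -0.0205 and the log2FC of RAB6D was 0.00773, and without 1 array the ranges were -0.00635 to 0.136 for RAB39A, -0.226 to 0.196 for RAB3A, -0.00680 to 0.157 for RAB33B, -0.0355 to 0.125 for RAB3C, -0.0973 to 0.0227 for RAB6D, -0.0155 to 0.119 for RAB28, -0.0716 to 0.0390 for MAL2 and -0.141 to 0.00891 for STX3. The causes of these shifts were not tested.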
